A study of Mus musculus with 2 samples.

Results

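Mc1r, Gnas, 5 adenylate cyclase genes (Adcy2, Adcy3, Adcy6, Adcy7 and Adcy9) and 3 genes of protein kinase A subunits (Prkaca, Prkar1a and Prkar2b) make up the melanocortin receptor signalling route studied here. These 10 genes were taken by symbol from the annotated probe sets of the array, 10 of 19505 named genes, and each was read by 1 probe set. The cells were B16F10, a mouse melanoma line, stably transfected with an NRF3 expression plasmid (1 array) or with a GFP expression plasmid (1 array). In both populations the plasmid had been co-transfected with a puromycin resistance vector and the cells selected with puromycin, and both were treated with forskolin for 5 days before total RNA was extracted. The labels name no untreated cells, do not say whether a population was 1 clone or a pool, and do not give the promoter of the plasmids or the species of the NRF3 sequence. The comparison therefore describes the cAMP machinery under forskolin with NRF3 or GFP expression, and not the response to forskolin.

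The melanocortin receptor MC1R, encoded by Mc1r, is the receptor through which melanocytes sense melanocyte-stimulating hormone. It acts through the stimulatory G protein alpha subunit, encoded by Gnas, on membrane adenylate cyclases, which make cyclic AMP from ATP. Cyclic AMP binds the regulatory subunits of protein kinase A and frees the catalytic subunits, which phosphorylate CREB, and CREB in turn drives transcription of Mitf and with it the pigment genes. Forskolin activates membrane adenylate cyclases directly and so bypasses the receptor.

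The values were deposited on a log2 scale made with the robust multi-array average (RMA). With 1 array per group there was no spread between replicates, so differences are given without error or p-value and describe these 2 RNA samples. In bulk RNA, fewer cells with a transcript and less transcript per cell cannot be told apart. The overexpressed gene, Nfe2l3, which encodes NRF3, stood at 10.1 on the NRF3 array and at 6.04 on the GFP array, where the median of the 5222 control rows named neg was 6.12. Detection meant a value of at least 5.89 on either array. This floor is the median over the named probe sets and no measured background, and 10162 genes met it. Of the control rows named neg, 66.5% also reached it on either array, so detection here does not by itself show expression. All 10 melanocyte markers, among them Tyr, Dct and Pmel, were detected on these arrays, and 0 of 8 leukocyte, 0 of 9 fibroblast and endothelial and 0 of 8 epithelial markers were. The upper quartile of the control rows named neg was 7.85 on the NRF3 array and 7.52 on the GFP array, and values below it are called dim here. Differences are NRF3 minus GFP. Over all detected genes their median was -0.07, with quartiles of -0.55 and 0.39. A gene was counted as higher or lower when its values differed by at least 1.5-fold, a rule of size and not a test.

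The receptor stood higher in NRF3 cells, while a pair of cyclase genes and one regulatory subunit gene of protein kinase A stood lower. Of the 10 genes, 9 were detected. Of these, 1 (Mc1r) was at least 1.5-fold higher in NRF3 cells, against 17.0% of all detected genes, and 3 (Adcy3, Adcy7 and Prkar2b) were at least 1.5-fold lower, against 23.6%. At 2-fold, none of the 9 was higher, against 6.75% of all detected genes, and Adcy3, Adcy7 and Prkar2b were lower, against 11.0%. With 9 genes, these counts do not set the route apart from the rest of the array. The median difference of the 9 was -0.20, beside -0.07 for all detected genes. Gnas, Adcy6, Adcy9 and Prkar1a, 4 of the 9, lay between the quartiles of all detected genes. The probe set of Adcy2 stayed under the floor on both arrays.

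**Figure D1:**
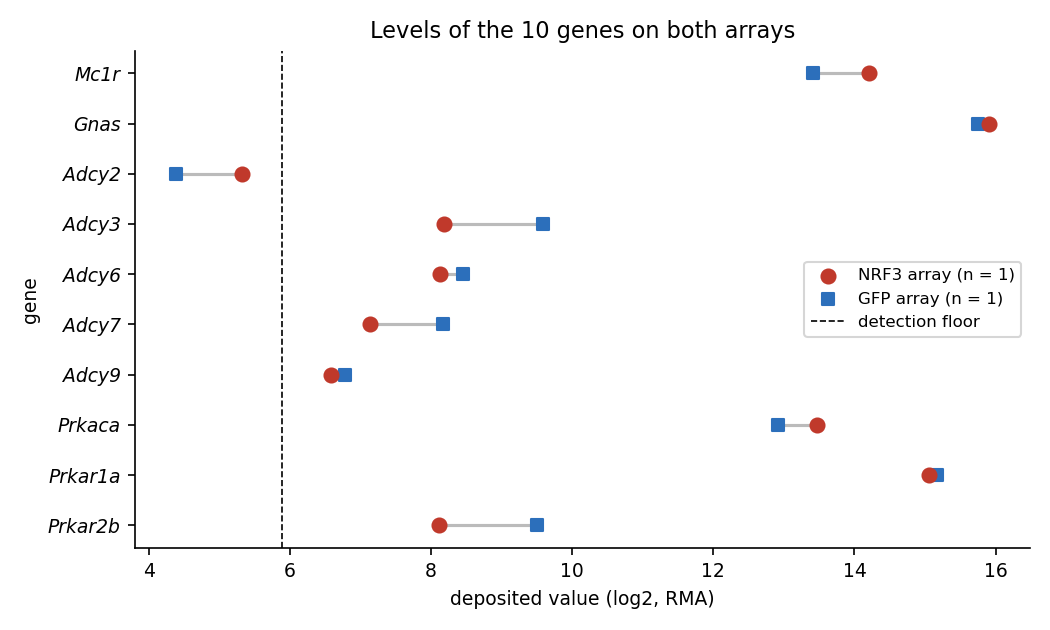
Deposited log2 value (horizontal axis) of each of the 10 genes (rows) on the NRF3 array (circles) and the GFP array (squares), 1 array each, with the detection floor of 5.89 as a dashed line. Mc1r lies to the right on the NRF3 array, Adcy3, Adcy7 and Prkar2b lie to the left, and Adcy2 lies left of the floor on both arrays; levels of different genes come from different probe sets and are not comparable with each other.

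RefSeq promoter windows, 250 bases before to 50 after an annotated start, are shown for the gene that was higher, for the pair of genes with the lowest differences, and for the single gene with a complete cAMP response element. The table held 22 windows for 9 of the genes, several of them overlapping, and sequences are given 5′ to 3′ on build GRCm38.p6. It held no window for Adcy6, so that gene was not searched. Capitals mark matches on either strand to the cAMP response element TGACGTCA, to its half-site TGACG, to the E-boxes CATGTG and CACGTG, bound by MITF and related factors, and to the core of the antioxidant response element, TGACNNNGC, which NRF3 binds with small MAF proteins. Every full element contains the half-site on both strands. Where a gene had several windows, the first listed is shown, and for Prkar1a one of the overlapping pair that holds the element.
Mc1r window, chr8:123406832-123407131, plus strand: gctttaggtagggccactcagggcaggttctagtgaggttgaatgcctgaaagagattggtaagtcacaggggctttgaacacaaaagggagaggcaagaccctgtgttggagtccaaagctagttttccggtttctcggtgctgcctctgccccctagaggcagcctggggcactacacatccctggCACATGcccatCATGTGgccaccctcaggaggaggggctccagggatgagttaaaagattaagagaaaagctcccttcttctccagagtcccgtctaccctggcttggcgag
Adcy3 window, chr12:4133147-4133446, plus strand: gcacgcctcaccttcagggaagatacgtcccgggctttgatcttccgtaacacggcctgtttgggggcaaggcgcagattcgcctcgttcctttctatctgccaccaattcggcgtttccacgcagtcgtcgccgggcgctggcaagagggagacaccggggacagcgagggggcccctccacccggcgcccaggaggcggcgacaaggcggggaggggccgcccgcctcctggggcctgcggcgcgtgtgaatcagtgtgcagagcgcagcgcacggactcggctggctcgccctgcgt
Prkar2b window, chr12:32061228-32061527, minus strand: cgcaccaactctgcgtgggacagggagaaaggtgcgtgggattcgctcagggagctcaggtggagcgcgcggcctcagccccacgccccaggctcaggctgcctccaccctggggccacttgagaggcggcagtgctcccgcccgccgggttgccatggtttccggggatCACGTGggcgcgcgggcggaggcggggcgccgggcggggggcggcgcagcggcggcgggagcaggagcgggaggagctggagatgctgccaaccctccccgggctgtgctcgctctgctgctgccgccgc
Prkar1a window, chr11:109650699-109650998, plus strand: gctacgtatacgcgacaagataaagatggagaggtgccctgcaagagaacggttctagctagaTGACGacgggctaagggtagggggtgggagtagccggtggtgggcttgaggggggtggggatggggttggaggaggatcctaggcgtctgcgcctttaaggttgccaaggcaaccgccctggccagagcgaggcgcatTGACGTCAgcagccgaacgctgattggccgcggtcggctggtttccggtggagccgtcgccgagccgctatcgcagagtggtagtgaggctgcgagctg

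The Mc1r window held CATGTG and its reverse complement CACATG, starting 51 and 62 bases before the annotated start. Of all 32851 windows in the table, 14.2% held this motif, as did 1 window each of Gnas and Prkar1a. The first Adcy3 window held none of the motifs searched, nor did the second. The Prkar2b window held 1 CACGTG, 80 bases before the start, a motif found in 7.15% of all windows and in other windows of Prkaca and Prkar1a. Of the 9 genes with a window, Prkar1a was the single one with the complete cAMP response element. It lies 49 bases before the annotated start in the window shown and is present in 1.79% of all windows. The half-site, in 20.8% of all windows, occurred in 9 of the 22 windows of these genes (40.9%), several of which overlap. Those windows belong to Gnas, Prkaca, Adcy7, Prkar1a and Adcy9, and genes with more windows have more room for a match. The antioxidant element core, in 12.4% of all windows, occurred in 1 window, the second of Prkaca, as GCCCAGTCA on the opposite strand. The base composition of the windows differed between the genes: the Mc1r window was 55.0% G and C with 4 CpG pairs, the first Adcy3 window 68.7% with 33, and the first Prkar2b window 75% with 32. The medians over all windows were 52.7% and 7 CpG pairs. These matches describe letters in the windows and not occupied sites.

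Mc1r (NCBI gene 17199, chromosome 8) stood at 14.2 on the NRF3 array and at 13.4 on the GFP array, a log2 difference of 0.79, or 1.73-fold higher in NRF3 cells. Both values lay far above the dim range, and 11.1% of detected genes had a larger difference. Mc1r lies on chromosome 8, where the median difference over 549 detected genes was 0.56, the highest among the 20 chromosomes with at least 50 detected genes. Within that chromosome 37.7% of detected genes had a larger difference than Mc1r. Relative to the chromosome median Mc1r differed by 0.23, and relative to the 50 detected genes nearest to it by 0.33, both under the 1.5-fold rule. The neighbouring genes thus stood higher too, and their part in the result was not tested.

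The other melanocortin receptor genes, Mc2r, Mc3r, Mc4r and Mc5r, were under the floor, between 3.85 and 5.08 on the NRF3 array and between 3.02 and 4.80 on the GFP array. Mc1r was thus the single detected receptor of the family. Pomc, the precursor gene of melanocyte-stimulating hormone, was also under the floor, at 5.76 on the NRF3 array and 5.46 on the GFP array. Mgrn1 encodes a ubiquitin ligase that dampens melanocortin receptor signalling, and it stood at 9.87 in NRF3 cells and 10.9 in GFP cells. Its difference of -1.004 was opposite in direction to that of Mc1r. Atrn, which encodes attractin, a membrane protein needed for agouti to act on MC1R in mice, stood at 10.9 in NRF3 cells and 11.5 in GFP cells, a difference of -0.57 just inside the 1.5-fold rule. The related Atrnl1 differed by -0.40. Mrap, the accessory protein gene of the corticotropin receptor, passed the rule of size at 0.65, but its values of 5.93 in NRF3 cells and 5.28 in GFP cells cannot be told from background.

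Gnas (NCBI gene 14683, chromosome 2) stood at 15.9 on the NRF3 array and at 15.7 on the GFP array, a difference of 0.16. The difference was small, and 36.7% of detected genes had a larger one. The locus is imprinted and makes several transcripts from separate promoters, and the probe set lists 9 RefSeq transcripts, so its value cannot be assigned to the form that encodes the stimulatory alpha subunit. Ric8b, the chaperone of the stimulatory subunit, differed by 0.46. The related Gnal, of olfactory neurons, was under the floor.

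Among the adenylate cyclases, Adcy3 (NCBI gene 104111, chromosome 12) was the lowest. Its product is a membrane cyclase best known from olfactory cilia. It stood at 8.18 on the NRF3 array and at 9.58 on the GFP array, a difference of -1.40, or 2.64-fold lower in NRF3 cells. Both values lay above the dim range. Only 4.83% of detected genes had a lower difference. The detected genes of chromosome 12 had a median of -0.16, and relative to the 50 nearest detected genes Adcy3 still differed by -1.18.

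Adcy7 (NCBI gene 11513, chromosome 8), a cyclase that G protein beta-gamma subunits stimulate, stood at 7.13 on the NRF3 array and at 8.17 on the GFP array, a difference of -1.03, or 2.05-fold lower. The NRF3 value was dim, so the size of the difference may depend on background. Its chromosome went the other way. Of the detected genes of chromosome 8, 4.55% had a lower difference than Adcy7, against 10.3% of all detected genes, and relative to its 50 nearest detected genes Adcy7 differed by -1.77. Mc1r and Adcy7 thus lie on the same chromosome and stood on opposite sides, 1.83 apart on the log2 scale of differences.

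The other cyclases of the group differed less. Adcy6 (NCBI gene 11512, chromosome 15), a cyclase inhibited by calcium, stood at 8.13 in NRF3 cells and 8.45 in GFP cells, a difference of -0.32. Relative to the median of its chromosome, -0.28, that difference was -0.04. Adcy9 (NCBI gene 11515, chromosome 16), a widely expressed cyclase that responds weakly to forskolin, stood at 6.58 in NRF3 cells and 6.78 in GFP cells. Both values were dim, and the difference was -0.20. Adcy2 (NCBI gene 210044, chromosome 13), a cyclase of the same beta-gamma-stimulated class as Adcy7, stood at 5.32 in NRF3 cells and 4.39 in GFP cells. Both lay under the floor and under the medians of the control rows, 6.37 on the NRF3 array and 6.12 on the GFP array, so its difference of 0.93 is not read as a difference in expression.

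The whole cyclase family was read by 10 probe sets, of which 4 were detected, those of Adcy3, Adcy6, Adcy7 and Adcy9. Of these 4, Adcy3 and Adcy7 were at least 1.5-fold lower in NRF3 cells, beside 23.6% of all detected genes, and none was as much higher, beside 17.0%. All 4 differences lay below 0, as did 5507 of the 10162 over all detected genes, and their median was -0.68 beside -0.07. The 6 undetected genes, Adcy1, Adcy2, Adcy4, Adcy5, Adcy8 and the soluble cyclase gene Adcy10, lay between 3.40 and 5.32 on the NRF3 array and between 3.31 and 5.22 on the GFP array. Cap1 encodes a cyclase-associated protein that in mammals acts mainly on actin, and it differed by 0.48.

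**Figure D2:**
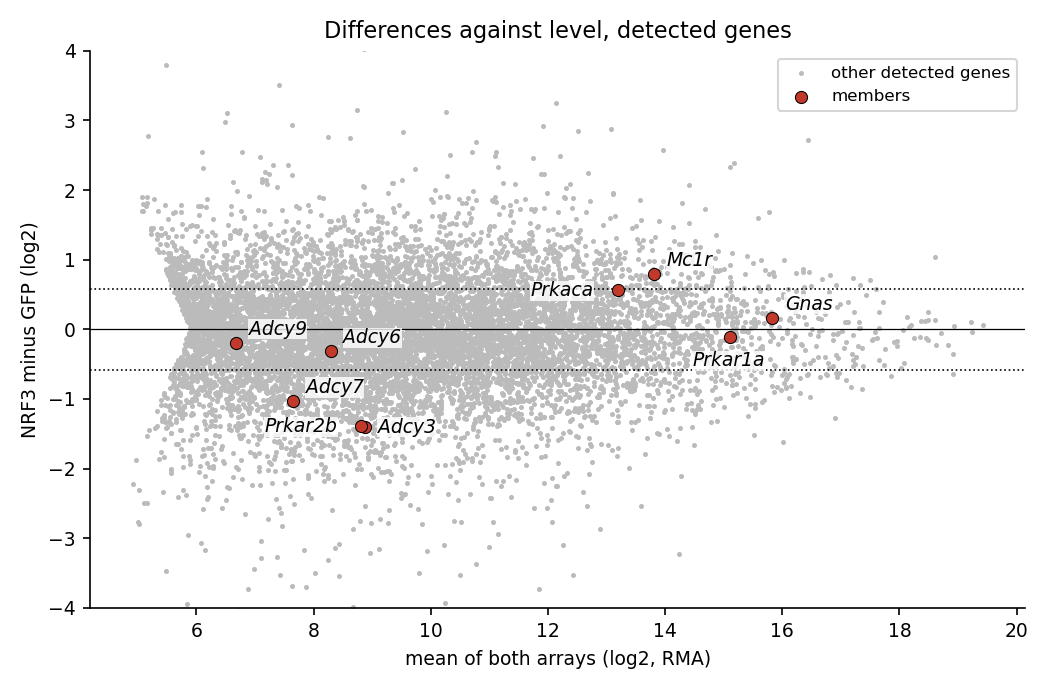
Difference NRF3 minus GFP (vertical axis, log2) against the mean of both arrays (horizontal axis, log2) for all detected genes (grey) and the 9 detected members (red), with dotted lines at 1.5-fold; 25 genes beyond 4 either way are not drawn. Adcy3 and Prkar2b coincide near -1.4 in the lower part of the cloud, and Mc1r and Prkaca lie side by side above 0 among the brighter genes.

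Of the 7 subunit genes of protein kinase A, counting Prkx, 6 were detected. By the 1.5-fold rule 2 of these, Prkacb and Prkar2b, were lower in NRF3 cells, beside 23.6% of all detected genes, and none was higher, beside 17.0%. Prkaca (NCBI gene 18747, chromosome 8), the gene of the main catalytic subunit, stood at 13.5 on the NRF3 array and at 12.9 on the GFP array. Its difference of 0.56, or 1.48-fold higher, fell just short of the 1.5-fold rule and passed it after quantile normalization (0.60) and after subtraction of a trend on level (0.59). It equalled the median of chromosome 8: relative to that median Prkaca differed by 0.00, and 49.5% of the detected genes there had a larger difference. Relative to its 50 nearest detected genes it differed by 0.28, and their part in its difference was not tested. The other catalytic subunit gene, Prkacb on chromosome 3, went the other way, with 10.4 in NRF3 cells and 11.1 in GFP cells, a difference of -0.73 or 1.66-fold lower. The differences of Prkaca and Prkacb were 1.29 apart, a distance that does not depend on centring of the arrays. Prkx, a related catalytic kinase gene on the X chromosome, differed by -0.14.

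Prkar1a (NCBI gene 19084, chromosome 11) encodes the type I alpha regulatory subunit, whose loss in humans causes Carney complex, a syndrome with pigmented skin lesions. It stood at 15.1 on the NRF3 array and at 15.2 on the GFP array. The difference of -0.11 was near the median of all detected genes, and relative to its chromosome it was 0.04. Prkar2b (NCBI gene 19088, chromosome 12), the type II beta regulatory subunit, stood at 8.11 on the NRF3 array and at 9.50 on the GFP array, a difference of -1.39 or 2.62-fold lower. Both values were above the dim range, and 4.94% of detected genes had a lower difference. Relative to its 50 nearest detected genes Prkar2b differed by -1.19. The differences of Prkar1a and Prkar2b were 1.28 apart. Prkar2a, the type II alpha subunit, stood at 9.33 in NRF3 cells and 9.27 in GFP cells, and Prkar1b was under the floor.

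Protein kinase inhibitor genes encode small proteins that block the free catalytic subunits. Of 2 detected, 1 (Pkia) was at least 1.5-fold lower, beside 23.6% of all detected genes, and none as much higher, beside 17.0%. Pkia stood at 8.39 in NRF3 cells and 9.22 in GFP cells, a difference of -0.83, and Pkig at 11.0 in NRF3 cells and 11.6 in GFP cells, a difference of -0.57 that missed the 1.5-fold rule. Pkib was under the floor.

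**Figure D3:**
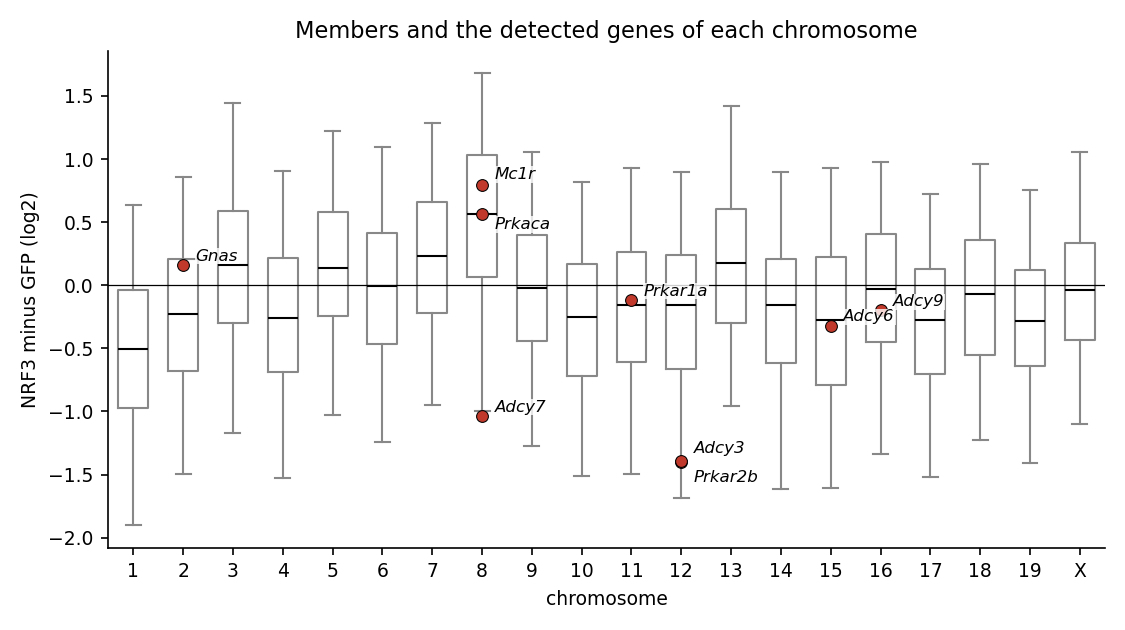
Difference NRF3 minus GFP (log2) of the detected genes of each chromosome (boxes: quartiles and median; whiskers: 5th to 95th percentile) with the 9 detected members as red points. Mc1r and Prkaca lie inside the raised box of chromosome 8, Prkaca on its median of 0.56, whereas Adcy7 lies below the lower whisker of that chromosome, and Adcy3 and Prkar2b lie low on chromosome 12.

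Beyond these genes, 13 lists of the wider pathway were described, with receptors, G proteins, anchoring proteins and effectors. They held 63 detected genes that are not among the 10. Of these, 6 were at least 1.5-fold higher in NRF3 cells (9.52%, beside 17.0% of all detected genes) and 21 were at least 1.5-fold lower (33.3%, beside 23.6%). Their median difference was -0.24. The split depended on the scaling: after quantile normalization 8 were higher and 16 lower, and all detected genes then had 20.9% higher and 19.9% lower. Of the 21 lower genes, 11 had a dim NRF3 value, and of the 6 higher genes 3 had a dim GFP value. The GFP values of these 3, Mrap (5.28), Akap6 (5.09) and Gng11 (5.65), were also under the floor. They counted as detected through the NRF3 array alone. Among the lower genes, Vipr2 (4.99), Akap12 (4.77) and Rap1gap (4.87) had NRF3 values under the floor and counted through the GFP array alone.

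Receptor kinases and arrestins switch activated receptors off. Of 4 detected genes of this list 3 were at least 1.5-fold lower, beside 23.6% of all detected genes, and none as much higher, beside 17.0%. The NRF3 values of all 3, Arrb1, Grk5 and Grk4, were dim. No gene of this list met a floor at the 75th percentile, so that floor leaves nothing to count here. Arrb1, the gene of beta-arrestin 1, which uncouples activated receptors, stood at 7.33 in NRF3 cells and 8.97 in GFP cells, a difference of -1.64. The receptor kinase gene Grk5 stood at 7.19 in NRF3 cells and 8.39 in GFP cells, and Grk4 differed by -0.82. Grk6 differed by 0.05. Of 22 other receptor genes that couple to the stimulatory G protein 3 were detected. Vipr2, a receptor of vasoactive intestinal peptide, stood at 4.99 in NRF3 cells and 7.40 in GFP cells, so its NRF3 value was under the floor and its GFP value dim. Gpr161, a receptor of the primary cilium, stood at 6.75 in NRF3 cells, a dim value, and at 7.75 in GFP cells, a difference of -0.995. Htr4, a serotonin receptor, differed by 0.13, with values on both arrays under the medians of the control rows.

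Of 6 detected genes of the inhibitory G protein list 1 (Gpsm1) was at least 1.5-fold lower, beside 23.6% of all detected genes, and none as much higher, beside 17.0%. Gpsm1, a regulator of inhibitory subunits, differed by -0.62, with dim values on both arrays, and missed the rule after quantile normalization. Gnao1, on chromosome 8, differed by -0.46, and by -1.03 relative to its 50 nearest detected genes. The differences were -0.16 for each of Gnai2, Gnai3 and Gpsm2 and 0.13 for Ric8a. Of 12 detected beta and gamma subunit genes 1 (Gng11) was higher (8.33%, beside 17.0% of all detected genes) and 4 gamma genes were lower (33.3%, beside 23.6%). Among the lower genes, Gng2 at -1.79 and Gng8 at -1.36 had dim NRF3 values. Gng7 at -1.17 and Gng10 at -1.02 lay above the dim range on both arrays. Gng11 stood at 9.16 in NRF3 cells and 5.65 in GFP cells, the GFP value being below the floor of detection. The size of its difference of 3.51 may thus depend on background. Gng4 differed by 0.18.

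A-kinase anchoring proteins tether the regulatory subunits at places in the cell. Of 17 detected genes 3 were higher (17.6%, beside 17.0% of all detected genes) and 5 lower (29.4%, beside 23.6%), with a median of -0.19. The split turned to 4 higher and 2 lower after quantile normalization, with the lowess trend subtracted, and with chromosome or neighbour medians subtracted. Akap11 stood at 8.90 in NRF3 cells and 7.81 in GFP cells, a difference of 1.09, and both values lay above the upper quartile of the control rows. Akap6 differed by 1.44, with a dim NRF3 value of 6.53 and a GFP value of 5.09 under the floor. Akap12, which encodes gravin, differed by -1.27. Its NRF3 value of 4.77 was under the floor, and its GFP value of 6.04 was under the median of the control rows. Wasf1, an actin regulator that also binds the kinase, stood at 7.98 in NRF3 cells and 8.92 in GFP cells, a difference of -0.94.

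Of 6 detected genes of other cyclic AMP effectors 1 was higher (16.7%, beside 17.0% of all detected genes) and 2 were lower (33.3%, beside 23.6%). Rapgef3, which encodes EPAC1, the exchange factor through which cyclic AMP activates RAP1 without protein kinase A, stood at 8.25 in NRF3 cells and 9.34 in GFP cells, a difference of -1.09. Rapgef2, another RAP exchange factor, stood at 13.4 in NRF3 cells and 11.3 in GFP cells, a difference of 2.08 or 4.24-fold higher. Rap1gap, which turns RAP1 off, differed by -1.64, with an NRF3 value of 4.87 under the floor and a dim GFP value of 6.51. Rap1b differed by 0.21. In the CREB family 1 of 4 detected genes, Ep300, was lower, beside 23.6%, and none higher, beside 17.0%. Ep300 missed the rule after quantile normalization, with the lowess trend subtracted, and with chromosome or neighbour medians subtracted. Creb1 differed by -0.04, Atf1 by -0.05, and their coactivators Crebbp and Ep300 by 0.42 and -0.63.

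**Figure D4:**
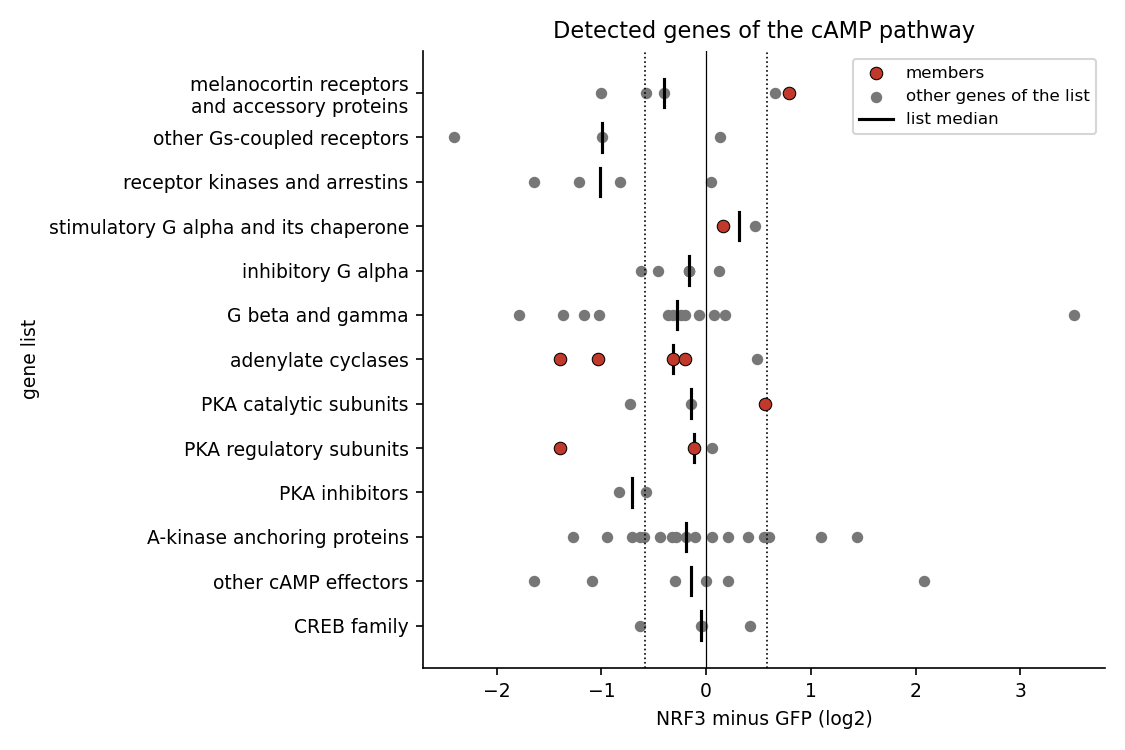
Difference NRF3 minus GFP (horizontal axis, log2) of each detected gene in the 13 pathway lists (rows), members in red, other genes in grey, list medians as black bars, and dotted lines at 1.5-fold. The 4 detected cyclase members lie left of 0, 2 of them past 1.5-fold; of the kinase subunits Prkacb and Prkar2b lie past 1.5-fold on the left and none on the right; and Gng11 lies farthest right at 3.51.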

How the data were processed

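RNA from 1 NRF3 and 1 GFP population, 100.0 ng each per the labels' protocols, was hybridised to Affymetrix arrays of 1 colour. The authors deposited log2 values, 1 per probe set, made with Affymetrix Expression Console and RMA, per the submitters' processing notes. Version, background settings and build were not given in the sources used here. The method puts arrays on a shared scale and can compress differences of dim probes. Of 28846 rows, 19572 carried 1 gene symbol, none several, and all matched a RefSeq gene number (GRCm38.p6), used for chromosome and gene order. The probe set with the highest mean stood for a gene. Arrays give no read depth, and their number limits the precision.

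Differences, counts past 1.5-fold and medians were computed with Python 3.11.15 and pandas 2.3.3, and the steps were tested on simulated data. No test was possible with 1 array per group. Named were the 10 members, every detected cyclase, kinase subunit and melanocortin-list gene, Nfe2l3, and the 2 highest and 2 lowest detected genes of each list. Gnai2, Gnai3, Gng7, Gng10 and the undetected genes were added after their values were seen, and the CACGTG motif after the promoter sequences were seen. Members and lists were chosen with earlier results of these data known. Alternatives were median centring, quantile normalization, a lowess trend (span 0.3, statsmodels 0.14.6), the mean over probe sets, subtraction of chromosome or neighbour medians (50 genes), a 2-fold rule and other floors.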

Additional observations from a re-analysis of the deposited data

How the results depend on the processing

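No paired analysis was possible because each group had 1 array. Over the scalings and the subtraction of chromosome or neighbour medians, Adcy3 differed by -1.40 to -1.18, Prkar2b by -1.39 to -1.19 and Adcy7 by -1.77 to -0.88, so all 3 stayed past 1.5-fold. Mc1r ranged from 0.23 to 0.83 and Prkaca from 0.00 to 0.60, both lowest with the chromosome 8 median subtracted. Prkar1a crossed 0, from -0.11 to 0.04. Of the 60 values recomputed for single members, 54 kept their direction and their side of the 1.5-fold rule; averaging over probe sets could move none, since each member had 1. The count of higher members was 1 in the report, 2 after quantile normalization, 2 with the lowess trend subtracted, 2 without a floor (Adcy2 added), and 0 with chromosome medians subtracted, with neighbour medians subtracted or at 2-fold. The count of lower members was 3 in all of these and 1, Adcy3, under a stricter floor of 9.51 (75th percentile), which fewer genes reach. Of the 63 other detected pathway genes, 4 were higher and 11 lower at 2-fold (6.75% and 11.0% of all detected genes). Without a floor, 13 of 117 were higher and 25 lower (15.0% and 16.3% of all genes). With the higher floor, 2 were higher and 5 lower (17.8% and 24.1% of all genes that met it). The pathway genes that met the higher floor were not counted, so those counts have no share of their own to set beside these. Quantile normalization moved the median of all detected genes to 0.03, against -0.07 as deposited. Dim values limit what the differences of Adcy7 and Adcy9 can show.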
